A study of Mus musculus with 6 samples.

Results

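The genes described here are those of Hox paralog groups 8 and 9: Hoxb8, Hoxc8, Hoxd8, Hoxa9, Hoxb9, Hoxc9 and Hoxd9. They were chosen by paralog group, with their knockout minus wild type differences on these same arrays already known, so those differences are given as a description and carry no test. Of the 7 genes, 6 had a row of the table annotated to that symbol alone, out of 28815 rows in all. Hoxb8 had no such row, because its row also carries the symbol Hoxb7, and it is given no value.

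The RNA came from mouse embryos at embryonic day 11.5, from the cervical part of the spinal cord excluding its dorsal part and floor plate. Of the 6 arrays, lettered A to C within a genotype, 3 carried the label Nkx2.9 knockout and 3 the label wild type, and the question was which genes act downstream of the homeodomain factor Nkx2.9 in spinal accessory motor neurons. The strain, the knockout allele and whether embryos were pooled are not given in the sources used here, so any p-value measures only the spread between these arrays. Each value is a log2 expression value from which the median of its row over the 6 arrays had been subtracted. Differences between arrays can therefore be read, but not whether a gene was strongly or weakly expressed, and the labelled tissue could not be checked against marker levels.

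Hox genes encode homeodomain transcription factors and lie in 4 clusters, Hoxa to Hoxd. The order of the genes along a cluster follows the order in which their expression begins along the body, from the hindbrain towards the tail. Genes of groups 8 and 9 are known for expression that begins near the boundary between the brachial and the thoracic cord, caudal to most of the cervical cord. In motor neurons Hoxc8 is known for the patterning of brachial motor pools, and Hoxc9 for setting the thoracic motor columns and holding back the brachial Hox genes.

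Sequence before the start site was found for 4 of the 7 genes in the RefSeq table of build GRCm38.p6, and 3 of these had array values. The 250 bases before the start of Hoxd8 (chr2:74704365-74704614, plus strand), Hoxd9 (chr2:74697513-74697762, plus strand) and Hoxa9 (chr6:52227371-52227620, minus strand) are shown because Hoxd8 and Hoxd9 are neighbours in a cluster and differed by very unequal amounts, while Hoxa9 lay between them. Capitals mark a match to AGGTCA, the core that retinoic acid receptors bind.
Hoxd8: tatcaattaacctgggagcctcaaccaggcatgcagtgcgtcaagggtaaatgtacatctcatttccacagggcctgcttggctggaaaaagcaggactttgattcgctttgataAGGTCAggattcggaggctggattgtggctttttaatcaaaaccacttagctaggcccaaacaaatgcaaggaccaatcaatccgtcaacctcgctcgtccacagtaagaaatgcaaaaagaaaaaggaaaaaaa
Hoxd9: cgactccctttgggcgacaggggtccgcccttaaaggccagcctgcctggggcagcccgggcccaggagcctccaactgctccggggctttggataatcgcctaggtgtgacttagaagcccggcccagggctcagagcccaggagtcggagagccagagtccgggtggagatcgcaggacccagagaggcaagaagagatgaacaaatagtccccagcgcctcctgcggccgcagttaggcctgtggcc
Hoxa9: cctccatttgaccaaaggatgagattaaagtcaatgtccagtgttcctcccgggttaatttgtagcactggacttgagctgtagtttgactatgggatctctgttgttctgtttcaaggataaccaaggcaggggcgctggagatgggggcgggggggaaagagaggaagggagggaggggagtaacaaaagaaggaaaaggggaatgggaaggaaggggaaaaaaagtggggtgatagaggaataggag

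The following motifs were searched on both strands of these windows: the receptor core AGGTCA, the Cdx core TTTATG, the core TGATNNAT bound by Pbx and Hox proteins together, and the TATA box TATAAA. Hoxd8 held 1 AGGTCA and none of the other motifs, and Hoxd9 and Hoxa9 held none of the 4. The window of Hoxb8, which has no array value, held 2 TTTATG, 1 TGATNNAT and 2 TATAAA and no AGGTCA. Of 32851 promoter windows of the same length, 14% held AGGTCA, 10.8% TTTATG, 7.68% TGATNNAT and 12.4% TATAAA. G and C made up 44.4% of the Hoxd8 window, 49.6% of the Hoxa9 window and 65.2% of the Hoxd9 window. A match is only a match of letters and shows no binding. The motifs were picked once the promoter letters had been read, so nothing is read from matches set beside the shares over all windows.

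Among the group 8 and 9 genes, Hoxb9, Hoxd8 and Hoxa9 were lower on all 3 arrays labelled knockout than on any wild-type array. Hoxb9 was 1.98-fold, Hoxd8 2.28-fold and Hoxa9 1.27-fold lower. Hoxc8 had the largest mean difference, which came mostly from 1 wild-type array. Hoxd9 differed little and Hoxc9 hardly at all.

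Hoxb9 (row 10380622), the group 9 gene of the Hoxb cluster, stood at -0.71, -0.49 and -0.35 on labelled-knockout arrays A, B and C. Its wild-type values were 0.41, 0.66 and 0.35 on A, B and C. The groups lay 0.69 apart at their nearest arrays, more than the SD within either group. The means were -0.52 ± 0.18 and 0.47 ± 0.17 in that order (SD, n = 3 each), a log2 difference of -0.99 (SE 0.12 from limma's fit over the whole table).

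Hoxd8 (row 10472965), the group 8 gene of the Hoxd cluster, ranged more widely than Hoxb9 within each group. It stood at -1.21, -0.60 and -0.22 on labelled-knockout arrays A, B and C and at 0.39, 0.92 and 0.22 on wild-type A, B and C. Knockout A was the lowest array and wild-type B the highest, and the groups lay 0.45 apart at knockout C and wild-type C. The means were -0.68 ± 0.50 and 0.51 ± 0.37 (SD, n = 3 each), and the log2 difference was -1.19 (SE 0.29).

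Hoxa9 (row 10544788), which is best known for its part in blood progenitors and leukaemia, had a smaller difference. Its values were -0.06, -0.05 and -0.22 on labelled-knockout arrays A, B and C and 0.05, 0.39 and 0.28 on wild-type A, B and C. The groups did not overlap, but wild-type A lay only 0.10 above the nearest array labelled knockout. The means were -0.11 ± 0.10 and 0.24 ± 0.17 (SD, n = 3 each), and the difference was -0.35 (SE 0.10).

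Hoxc8 (row 10427290) was set by a single array. It stood at 3.56 on wild-type B, against -0.01 on wild-type A and 0.27 on wild-type C. Labelled-knockout arrays A, B and C were at -0.47, -0.30 and 0.01, so the groups overlapped, with knockout C 0.01 above wild-type A. The log2 difference of -1.53 had an SE of 0.92, and it was -0.38 without wild-type B. The groups still overlapped on the remaining arrays, on which Hoxa9 was at -0.28.

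The step of 3.29 from wild-type B to the next array of Hoxc8 was the largest such step above all other arrays among the 28791 rows with a value on every array. In 38 rows 1 array stood at least 1 log2 unit above the other 5. That array was labelled-knockout array C in 29 of them, wild-type B in 5, and wild-type A and C in 2 each. Besides Hoxc8 the 5 were Csmd3, the cadherin gene Cdh7, the calcium-binding protein gene Calb1 and a row with no symbol, all named after their values were seen.

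Hoxd9 (row 10472962) and Hoxc9 (row 10427286) were close to their medians on every array labelled knockout. Hoxd9 lay at -0.006, -0.030 and 0.006 on A, B and C of the arrays labelled knockout and at -0.14, 0.33 and 0.25 on wild-type A, B and C. Hoxd9 was therefore above every array labelled knockout on wild-type B and C and below all of them on wild-type A, and its difference was -0.16 (SE 0.12). Hoxc9 lay at -0.035, 0.036 and 0.035 on A, B and C of the arrays labelled knockout and at -0.11, 0.17 and -0.05 on wild-type A, B and C. Its difference was 0.007 (SE 0.079), with means of 0.012 ± 0.040 and 0.005 ± 0.148 (SD, n = 3 each).

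**Figure D1:**
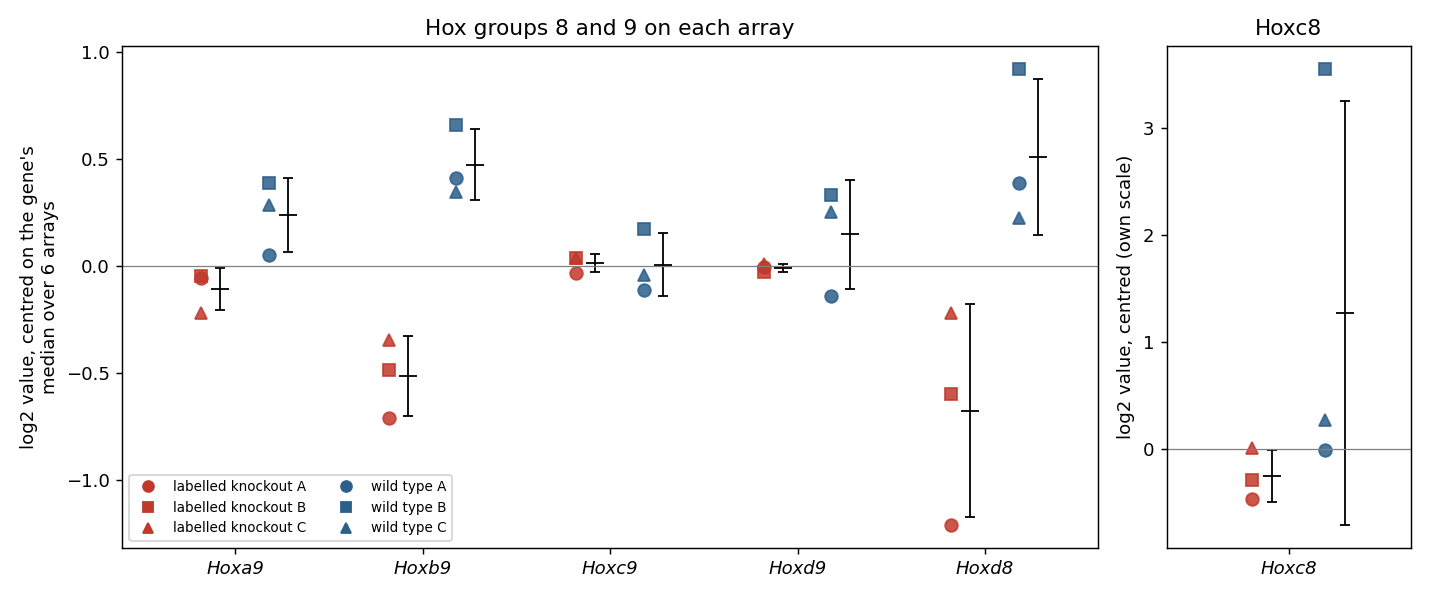
Centred log2 values (vertical axis) of the 6 measured group 8 and 9 genes on each array, with arrays labelled knockout in red, wild type in blue, the letter as the symbol shape, and bars for the mean ± SD of 3 arrays. Hoxc8 has its own axis because wild-type B stood at 3.56. Red and blue points do not overlap for Hoxa9, Hoxb9 and Hoxd8.

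Over the 6 genes, 5 were lower in the arrays labelled knockout, against 45.0% of all rows. In 3 of the 6 the groups were apart, with the knockout lower, against 4.25% of complete rows, and 3 were at least 1.5-fold lower (Hoxc8, Hoxd8 and Hoxb9), against 0.236% of all rows. The rule that chose the genes used this contrast, so nothing is read from these counts. The median difference over the 6 genes was -0.67, while it was 0.0087 over all complete rows. No row of the table, and so none of these genes, passed an adjusted p of 0.05 in limma (0% called), and 1605 had an unadjusted p under 0.05.

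In the Hoxd and Hoxc clusters, where both groups were measured, the group 8 gene had the lower difference. In the Hoxd cluster Hoxd8 was at -1.19 and its neighbour Hoxd9 at -0.16. In the Hoxc cluster Hoxc8 was at -1.53 and its neighbour Hoxc9 at 0.007, and without wild-type B they were at -0.38 and 0.091. The steps were not tested against each other. The group 9 genes themselves ran from Hoxb9 at -0.99 through Hoxa9 at -0.35 and Hoxd9 at -0.16 to Hoxc9 at 0.007. The steps from Hoxa9 to Hoxd9 and from Hoxd9 to Hoxc9 were no larger than the SD of Hoxd9 in the wild type (0.25). The step from Hoxb9 to Hoxa9 was larger than the SDs of both genes.

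Towards the head end of the clusters the differences of the next groups were of the same sign as in Hoxb9 and Hoxd8. All 5 measured genes of groups 6 and 7 were lower in the arrays labelled knockout, from -0.30 for Hoxb6 to -1.29 for Hoxc6, with a median of -0.40. Without knockout A, their lowest array, Hoxb6 was at -0.06 in place of -0.30 and Hoxb7 at -0.21 in place of -0.36. In 4 of these 5 genes, Hoxb6 being the exception, the groups were apart with the knockout lower, against 4.25% of complete rows. In Hoxb7 the nearest arrays lay only 0.043 apart. These genes too were chosen with the contrast known, so nothing is read from this count. The 3 genes of group 5 were at -0.17 (Hoxa5), 0.17 (Hoxb5) and 0.21 (Hoxc5), with groups that overlapped. Groups 1 to 4 had 6 genes higher and 5 lower with a median of 0.04. Their groups were apart in Hoxc4 with the knockout lower (-0.305) and in Hoxd3 with the knockout higher (0.31), and overlapped in the others. In Hoxc4 the nearest arrays lay only 0.009 apart, and its difference was -0.141 without knockout C. Of 28791 complete rows, 1224 had groups apart with the knockout lower and 1924 with it higher. Nothing is read from the counts in groups 1 to 4.

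Towards the tail end the differences were near 0. The 12 genes of groups 10 to 13 had 8 lower and 4 higher, a median of -0.02, and differences between -0.11 and 0.11. Hoxa10 next to Hoxa9 was at -0.001, Hoxc10 next to Hoxc9 at -0.023, and Hoxd10 next to Hoxd9 at -0.055. The range of Hoxc9 over the 6 arrays was 0.28, while the median range over all complete rows was 0.23. The centred values cannot tell a gene with no signal from a gene with the same signal on every array.

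**Figure D2:**
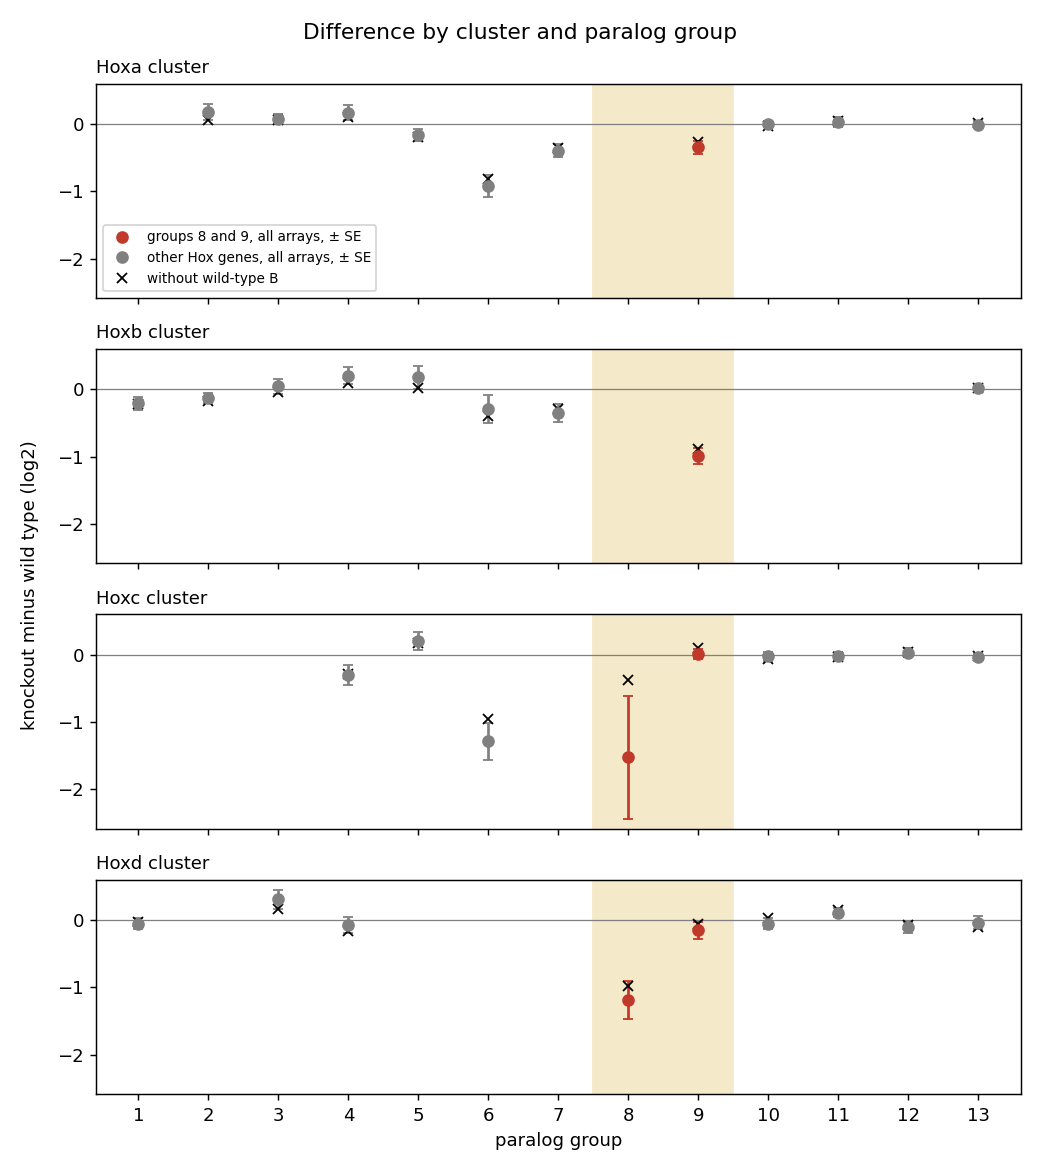
Knockout minus wild type difference (log2, vertical axis) of the 37 measured Hox genes by paralog group (horizontal axis), with a panel for each cluster, error bars of 1 SE from limma, and crosses for the value without wild-type B. Groups 8 and 9 are in red on a shaded band. The lowest values lie from group 6 to group 9, groups 10 to 13 lie near 0, and the cross of Hoxc8 lies far above its point.

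The wild-type arrays differed among themselves in these genes. All 6 genes were highest on wild-type B (4 of 6 with quantile normalization), which was the highest array in 18% of complete rows. In the next groups towards the head, Hoxa6, Hoxc6, Hoxa7 and Hoxb7 were also highest on wild-type B, but Hoxb6 was not. Further towards the head, Hoxa2, Hoxa4, Hoxb3, Hoxb4, Hoxb5 and Hoxd3 were lowest on wild-type B, and the other genes there were neither highest nor lowest on it. Wild-type B exceeded the mean of wild-type A and C by 3.43 in Hoxc8 and 0.62 in Hoxd8. The excess was between 0.22 and 0.28 in Hoxa9, Hoxb9, Hoxc9 and Hoxd9. The largest excesses were in the 2 genes with the largest differences between the groups, but wild-type B is itself part of the wild-type mean that sets those differences.

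Among the arrays labelled knockout, A was the lowest in 3 genes. Knockout A was below the mean of knockout B and C by 0.80 in Hoxd8, 0.33 in Hoxc8 and 0.29 in Hoxb9 (differences of -0.80, -0.33 and -0.29). In Hoxa9, Hoxc9 and Hoxd9 it differed from that mean by between -0.07 and 0.08. The median over the 6 genes was -0.26, -0.17 and -0.11 on labelled-knockout arrays A, B and C and 0.02, 0.52 and 0.26 on wild-type A, B and C.

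Leaving out single arrays kept Hoxb9 between -1.07 and -0.89, Hoxd8 between -1.42 and -0.92 and Hoxa9 between -0.44 and -0.28. Hoxc8 ranged from -2.17 without wild-type A to -0.38 without wild-type B. Hoxd9 was at -0.30 when wild-type A was dropped, -0.10 when C was and -0.06 when B was. Hoxc9 changed sign, between -0.051 without wild-type A and 0.091 without wild-type B. The median over the 6 genes was -0.33 without wild-type B. Without wild-type A 5 of the 6 genes, all but Hoxc9, had groups apart. Wild-type A was the lowest wild-type array of Hoxc8 and Hoxd9, whose groups came apart once it was dropped. The share of all rows with groups apart on those arrays was not computed, so nothing is read from this count.

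**Figure D3:**
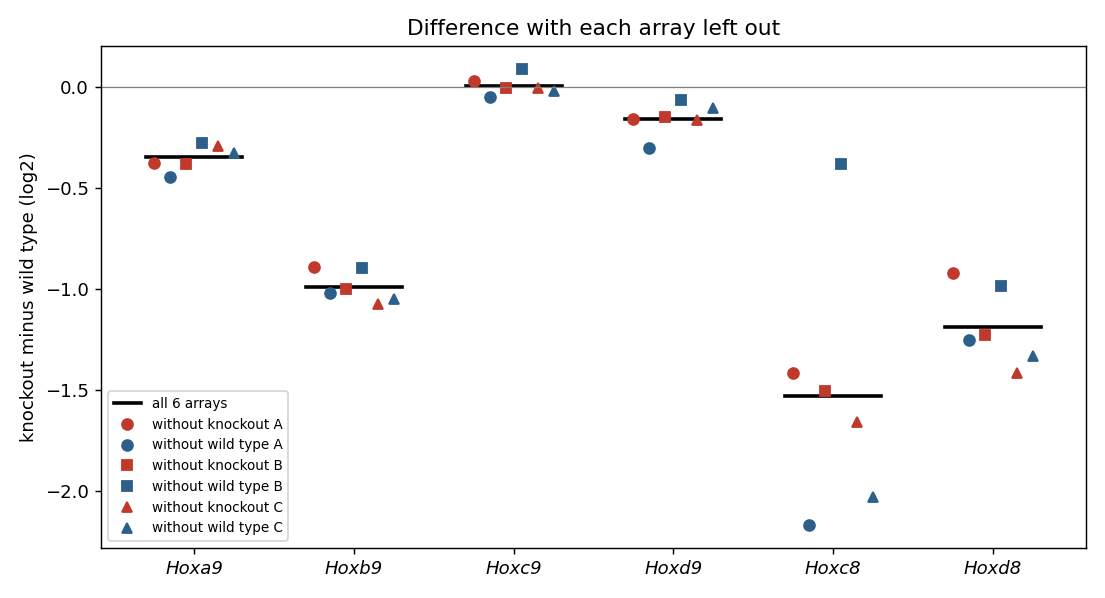
Knockout minus wild type difference (log2, vertical axis) of each group 8 and 9 gene with all 6 arrays (black line) and with each array left out in turn (symbols, coloured by the group of the array left out). Hoxc8 moves from -1.53 to -0.38 when wild-type B is left out, while the symbols of Hoxb9 stay between -1.07 and -0.89.

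Nkx2-9 itself was not lower in the arrays labelled knockout (difference 0.18, SE 0.11, limma adjusted p = 0.812). Where its probes lie relative to the change in the knockout allele is not known. Xist, the RNA of the inactive X chromosome, stood at 0.11, 4.56 and 4.91 on labelled-knockout arrays A, B and C and between -0.25 and -0.11 in the wild type, and the Y-linked gene Kdm5d stood at 0.11, -3.08 and -3.20 on the same 3 arrays. Knockout A was thus near the wild type in both genes, while knockout B and C were not. Without knockout A Hoxa9 was at -0.37, Hoxb9 at -0.89, Hoxc8 at -1.42 and Hoxd8 at -0.92. On those arrays every knockout had high Xist and no wild type did, so sex and genotype cannot be told apart there. The part of embryo sex in the Hox differences was not tested.

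Markers of other cells in or near the cord were not spread evenly. All 14 measured mesenchyme genes had a higher mean under the knockout label, with a list median of 0.54 on knockout C and between -0.07 and 0.13 on the other arrays. The 5 vessel genes had a median of 0.98 on knockout C and between -0.09 and 0.14 elsewhere. Of the 15 measured cell cycle genes all had a higher mean under the knockout label, with a list median of -0.55 on wild-type B. On knockout B it was -0.10, below wild-type A (-0.07) and C (0.03). Of 12 neuronal genes 11 were lower, Syt1 (-0.44, SE 0.17) and Elavl3 (-0.14, SE 0.04) at an unadjusted p under 0.05. The groups of Syt1 overlapped. The cell cycle and neuronal lists were added after the values were seen, so nothing is read from their counts. No gene of these lists passed an adjusted p of 0.05 in limma. Over all rows 45.0% were lower in the arrays labelled knockout, and 2.5% were lower at an unadjusted p under 0.05. Without knockout C the median difference was -0.035 over the mesenchyme list, in place of 0.19, and 0.024 over the vessel list, in place of 0.27. Over the neuronal list it was -0.072 without knockout C, in place of -0.129. Over the cell cycle list it was 0.126 without wild-type B, in place of 0.325. Without knockout C Hoxa9 was at -0.29, Hoxb9 at -1.07, Hoxc8 at -1.66 and Hoxd8 at -1.42. The part of these lists in the Hox differences was not tested. In tissue RNA, fewer cells of a type and less RNA per cell cannot be told apart.

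**Figure D4:**
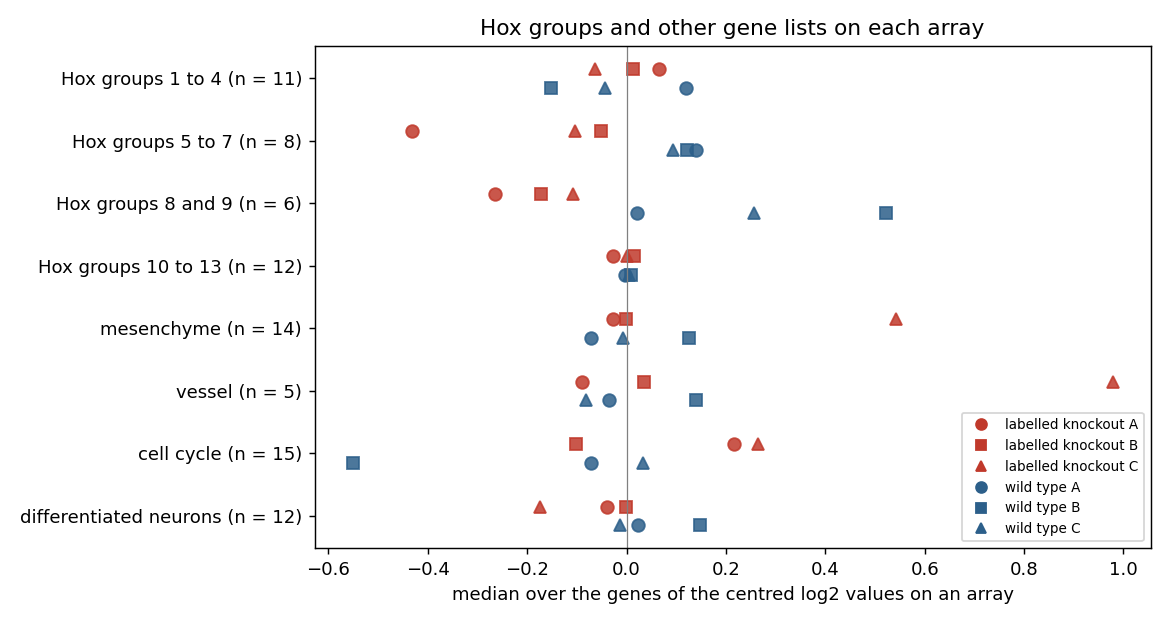
Median centred log2 value on each array (horizontal axis) over the genes of each list (vertical axis, with the number of genes measured), with arrays labelled knockout in red, wild type in blue and the letter as the symbol shape. Groups 8 and 9 separate red from blue, with wild-type B at 0.52, and so do groups 5 to 7. Knockout C stands alone in the mesenchyme and vessel lists and wild-type B in the cell cycle list.

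Other genes tied to Hox function were read from the same limma fit. At an unadjusted p under 0.05, 2.5% of all rows were lower and 3.07% higher in the arrays labelled knockout, and no gene of these lists passed an adjusted p of 0.05. Hox proteins bind DNA with cofactors of the Pbx, Meis and Pknox families. Of 8 measured cofactor genes 6 were lower and 2 higher, none with an unadjusted p under 0.05, and the lowest p values belonged to Meis3 (-0.11, SE 0.10) and Pbx4 (-0.08, SE 0.08).

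Signals that set Hox expression along the body include retinoic acid, FGF, Gdf11 and the Cdx factors. Of 25 measured genes of these pathways 8 were lower and 17 higher, with 1 at an unadjusted p under 0.05 in each direction. The lower one was Dhrs3, which encodes an enzyme that turns retinaldehyde back into retinol, at -0.85 (SE 0.13). Labelled-knockout arrays A, B and C stood at -0.65, -0.25 and -0.32 in Dhrs3 and the wild-type arrays at 0.54, 0.25 and 0.53. The higher one was Rxra, a retinoid X receptor gene, at 0.25 (SE 0.08).

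Polycomb proteins keep Hox genes silent and trithorax proteins keep them active. Of 20 measured genes 9 were lower and 11 higher, with 1 lower and 2 higher at an unadjusted p under 0.05. Cbx8, which encodes a Polycomb subunit, was at -0.25 (SE 0.05). Kmt2a, a trithorax methyltransferase gene, was at 0.11 (SE 0.05). Kdm6a, a demethylase gene that escapes X inactivation, was at 0.38 (SE 0.15), with its highest values of 0.37 and 0.58 on knockout B and C, the arrays with high Xist, and at 0.24 without knockout C.

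Of 27 motor column genes 18 were lower and 9 higher, with 1 in each direction at an unadjusted p under 0.05. Isl2, a LIM homeodomain gene of motor neurons, was at 0.18 (SE 0.07). Cdh7, a cadherin gene of motor pools, was at -0.82 (SE 0.33) and at -0.44 without wild-type B, where it stood at 1.26. Of 4 genes known from the forelimb, Shox2 was at -0.17 (SE 0.07), the only one with an unadjusted p under 0.05. No measured gene of muscle (6), dorsal root ganglion and neural crest (3) or dorsal cord (8) had an unadjusted p under 0.05.

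Several microRNA genes sit inside the Hox clusters beside these genes. The 3 genes of miR-196 lie between groups 9 and 10 or 13, on the tail side of Hoxa9, Hoxb9 and Hoxc9, and miR-196 is known for cutting the Hoxb8 messenger RNA. Their mature 5′ products are shown because they share a seed (bases 2 to 8, in capitals) and differ at 1 base outside it.
mmu-miR-196a-5p: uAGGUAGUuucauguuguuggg
mmu-miR-196b-5p: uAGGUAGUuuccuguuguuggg

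The first is made from Mir196a-1 beside Hoxb9 (chr11:96265187-96265208, plus strand) and Mir196a-2 beside Hoxc9 (chr15:102973365-102973386, plus strand), and the second from Mir196b beside Hoxa9 (chr6:52230129-52230150, minus strand), all in RefSeq on GRCm38.p6. The array rows are annotated to the precursors and do not measure the mature products. Mir196a-1 was at -0.15, -0.03 and -0.14 on labelled-knockout arrays A, B and C and at 0.21, 0.13 and 0.03 on wild-type A, B and C. The groups did not overlap, with the knockout lower, as in 4.25% of complete rows. The difference was -0.23 (SE 0.06, unadjusted p = 0.00809, adjusted p = 0.812 in limma). The microRNA genes were added after the values were seen, so this unadjusted p is only a description.

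Mir196a-2 was at -0.015 (SE 0.039) and Mir196b at 0.048 (SE 0.053), and the groups overlapped in both. Mir196a-1 was thus lower beside Hoxb9, which was lower too, and Mir196a-2 near 0 beside Hoxc9, which was near 0. Beside Hoxa9, which was lower, Mir196b was not. These pairs were not tested. Of the other 8 non-coding genes of the clusters with a row, none had groups apart with the knockout lower. Hoxaas2, between Hoxa2 and Hoxa3, had them apart with the knockout higher (0.11, SE 0.04). Of 28791 complete rows, 1224 had groups apart with the knockout lower and 1924 with it higher.

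Across 16995 named genes outside the Hox family, likeness to a Hox gene was taken as the root mean square difference over the 6 arrays. Nearest to Hoxb9 was Slitrk2, a neuronal membrane protein gene, at 0.20, followed by Dhrs3 at 0.21 and Tmem108 at 0.23, where the values of Hoxb9 itself had a root mean square of 0.52. Slitrk2 was nearest to Hoxd8 as well, at 0.28 against 0.70 for Hoxd8 itself, followed by Ldb2 and Tmem255a. Slitrk2 stood at -0.81, -0.13 and -0.15 on labelled-knockout arrays A, B and C and at 0.41, 0.63 and 0.13 on wild-type A, B and C.

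Hoxa9 was followed most closely by Adgrb2, Brinp3 and Gpr39, at 0.036 to 0.062 against 0.22 for Hoxa9 itself. No gene came near Hoxc8, whose nearest, Calb1, Cdh9 and Ppp1r1c, differed from it by 0.82 to 0.89 against 1.47 for Hoxc8 itself. For Hoxc9 (Zbp1, Pop7 and Rybp) and Hoxd9 (Atad3aos, Cdc42ep2 and Unc13c) the nearest genes lay at 0.020 to 0.070, but these profiles are small and many genes lie near 0. All these profiles share the same 6 arrays, and how close a profile would come by chance was not computed.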

How the data were processed

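Total RNA was turned into amplified sense-strand cDNA and biotin-labelled (protocols in the labels). The authors made the deposited log2 values with RMA, per the submitters' processing notes. The log base was taken as 2, which is RMA's. All 28791 complete rows had a median of 0 over the 6 arrays, and 24 rows without a value in wild-type C were fitted on 5 arrays. No pair of arrays held identical values.

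Symbols came from the platform's annotation: 21780 rows had 1, 1605 several and 5430 none. A gene with several rows was read from the row with most accessions. RefSeq supplied gene order and sequences.

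Arrays were grouped by the genotype in their titles. Groups were compared with limma 3.58.1 (R 4.3.3), fitting genotype alone, and Benjamini-Hochberg adjustment over all rows, tested on simulated data. SE is limma's. Figures used matplotlib 3.10.9.

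The Hox genes, lists and alternatives were chosen with earlier results of these data known, and the cell cycle, neuron and cluster microRNA genes were added after the values were seen, as were the motifs, picked once the promoter letters had been read. Context genes named are those at unadjusted p under 0.05, or else the 2 of lowest p, and the 3 nearest profiles per gene. Predicted, clone, olfactory receptor and small RNA names were left out of the last; the filter was widened to DNA-segment names after 1 had come up.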

Additional observations from a re-analysis of the deposited data

How the results depend on the processing

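Quantile normalization, centring arrays on their medians and array weights left each of the 6 Hox differences within 1 within-group SD of its value, with the same sign. The mean over the rows of a gene left these differences unchanged, so it was no check on them. For Hoxc8 the within-group SD was 1.41, so wide that even its difference of -0.38 without wild-type B lay within it. With quantile normalization or array centring the groups of Hoxc8 no longer overlapped, making 4 genes. With single arrays left out, the median difference was -0.73 to -0.33. The count of genes whose groups did not overlap was 3 to 5, with no share over all rows computed for those settings. Over the whole table the rows at unadjusted p under 0.05 were then 420 to 1494 lower and 557 to 1377 higher, and at adjusted p under 0.05 0 to 5; the 5, found without knockout A, were Xist, Kdm5d, Eif2s3y, Uty and a row with no symbol. The letters do not pair the arrays by any label, and deviations of same-letter arrays correlated at 0.17 (A), 0.22 (B) and 0.016 (C). Deviations of unlike-letter arrays correlated at -0.19 to 0.044, the lowest being those between A and B. Whether a letter marks a shared condition was not tested. With the letter as a replicate block 1253 rows were lower at unadjusted p under 0.05 in place of 719. In the same setting 1299 were higher in place of 886, and 0 passed an adjusted p of 0.05. The number of arrays limits the precision, and signal over background could not be read.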
